A study of Homo sapiens with 9 samples.

Results

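A set of 10 genes from 2 epithelial families was followed after silencing of STAG2 in RT112, a cell line established from a human bladder carcinoma. They were chosen by name: the 5 uroplakin genes UPK1A, UPK1B, UPK2, UPK3A and UPK3B, and the 5 simple epithelial keratin genes KRT7, KRT8, KRT18, KRT19 and KRT20. All 10 are among the 23370 entries of the expression table. Of these, 7 had a mean of at least 1 FPKM (fragments per kilobase of transcript, scaled to all fragments of the library) over the 9 libraries and were tested, and the other 3 (UPK1A, UPK3A and KRT20) were below that level. RNA was sequenced from 3 libraries with a control short hairpin RNA (shNT), 3 with a first hairpin against STAG2 (sh1) and 3 with a second one (sh2). The STAG2 protein belongs to cohesin, a ring-shaped complex that links sister chromatids and extrudes chromatin loops. All 9 libraries come from the same unmodified line, which was grown in serum, transduced with a hairpin and then moved to medium without serum. Hairpins lower a transcript and do not delete the gene, and the labels do not say whether the 3 libraries of a group came from separate transductions or cultures. The p-values therefore measure the spread between these libraries, which may be technical.

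Uroplakins are membrane proteins that assemble into rigid plaques on the surface of the umbrella cells lining the bladder lumen. The tetraspanins UPK1A and UPK1B fold in the endoplasmic reticulum and pair with single-pass partners, UPK1A with UPK2 and UPK1B with UPK3A or its relative UPK3B, before the plaques move to the surface in vesicles. Keratins are obligate heteropolymers: each filament needs a type II chain, here KRT7 or KRT8, and a type I chain, here KRT18, KRT19 or KRT20. KRT8 and KRT18 are the classic pair of simple epithelia, KRT7 and KRT19 are widespread in urothelium, and KRT20 is a marker of umbrella cells.

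The 5 uroplakin genes lie on 5 chromosomes and the keratins lie in 2 clusters (GRCh38, GENCODE 29 gene bounds). UPK1A is at chromosome 19, 35666516 to 35678483, plus strand. UPK1B is at chromosome 3, 119173517 to 119205153, plus strand. UPK2 is at chromosome 11, 118925164 to 118958559, plus strand. UPK3A is at chromosome 22, 45284982 to 45295874, plus strand, and UPK3B is at chromosome 7, 76510428 to 76516521, plus strand. KRT7 (52232520 to 52252186, plus strand), KRT8 (52897187 to 52949954, minus strand) and KRT18 (52948871 to 52952901, plus strand) lie on chromosome 12. KRT19 (41523617 to 41528308) and KRT20 (40875941 to 40885227) lie on chromosome 17, both on the minus strand. KRT8 and KRT18 overlap by 1084 bases on opposite strands.

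Promoter windows of 300 bases, 250 before and 50 after the annotated start, were found in RefSeq (GRCh38.p14) for 5 of the 10 genes. The windows of the 2 tetraspanins are printed because UPK1B was detected in every library while UPK1A was near 0, and that of UPK3B because it was the uroplakin of highest mean level. They run 5′ to 3′ along the gene, UPK1B from chr3:119173348-119173647, UPK3B from chr7:76510302-76510601 and UPK1A from chr19:35666267-35666566, each on the plus strand, and capitals mark CG dinucleotides.
UPK1B: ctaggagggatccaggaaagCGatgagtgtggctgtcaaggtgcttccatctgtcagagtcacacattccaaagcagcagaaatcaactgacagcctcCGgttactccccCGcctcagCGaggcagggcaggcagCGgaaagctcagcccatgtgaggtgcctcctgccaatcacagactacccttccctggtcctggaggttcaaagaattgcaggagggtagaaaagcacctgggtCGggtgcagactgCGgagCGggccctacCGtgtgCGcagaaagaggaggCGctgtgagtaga
UPK3B: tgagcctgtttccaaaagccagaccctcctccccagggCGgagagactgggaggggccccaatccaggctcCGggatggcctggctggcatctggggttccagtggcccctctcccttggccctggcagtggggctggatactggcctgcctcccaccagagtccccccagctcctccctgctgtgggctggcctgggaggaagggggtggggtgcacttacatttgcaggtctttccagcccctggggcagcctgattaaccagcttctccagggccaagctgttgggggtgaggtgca
UPK1A: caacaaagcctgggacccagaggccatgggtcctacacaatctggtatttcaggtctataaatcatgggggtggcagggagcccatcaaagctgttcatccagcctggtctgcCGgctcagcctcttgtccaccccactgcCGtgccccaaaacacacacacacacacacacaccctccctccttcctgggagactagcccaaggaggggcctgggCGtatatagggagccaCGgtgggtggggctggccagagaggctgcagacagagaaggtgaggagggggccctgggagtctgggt

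The UPK1B window holds 11 CG dinucleotides, that of UPK1A 4 and that of UPK3B 2, against a median of 14 over all 35116 promoter windows of this length. The KRT20 window also holds 2, and that of KRT8 lies far from the start of its principal transcript and is not described. On either strand, the letters TATAAA, a form of the TATA box, occur in UPK1A, at -194 bases from the start, and in 11.5% of all windows. Other forms were not searched, among them the letters TATATA, which the printed UPK1A window also holds nearer to the start. The GC box letters GGGCGG occur in UPK3B, at -215 bases from the start, and in 45.0% of all windows. The CACCC letters CACCCC, bound by KLF-type factors, occur in UPK3B and UPK1A and in 28.98% of all windows. The GATA letters AGATAA, the grainyhead letters AACCGGTT and the AP-1 letters TGACTCA or TGAGTCA are in none of the UPK1B, UPK3B, UPK1A and KRT20 windows. They occur in 10.3%, 0.134% and 4.95% of all windows. These are matches of exact letters and no binding was measured. Variants were not searched, such as the GATA letters TGATAA, which the KRT20 window holds.

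The hairpins lowered their target in all 6 silenced libraries. STAG2 stood at 16.8, 34.7 and 27.7 FPKM in shNT replicates 1, 2 and 3, at 3.76, 4.13 and 5.34 with sh1, and at 3.41, 4.93 and 3.48 with sh2. The groups did not overlap. The log2 fold change for both hairpins against control was -2.36 (SE 0.21, limma adjusted p = 0.00797), and an exact permutation test gave a doubled one-sided p = 0.0238, the smallest that doubling allows over 84 arrangements, which ignore the replicate number. The limma call was lost when genes of all levels were tested (adjusted p = 0.0616) and without shNT replicate 3 (-2.30, limma adjusted p = 0.0556).

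Library totals and replicate numbers bear on every value that follows. Leaving spike-ins aside, FPKM summed to 397792 to 434433 in 8 libraries and to 516464 in shNT replicate 1. In that library short transcripts were high relative to the other libraries (rho = -0.588 between a gene's deviation and its transcript length, over 10721 genes that are no independent replicates). In the others rho lay between -0.048 and 0.300. Libraries of the same replicate number deviated together from their group means. Markers of other cells were mostly low. All 7 endothelial markers and all 6 mesothelial markers had means below 1 FPKM, and their summed levels lay between 0.751 and 1.70 and between 0.300 and 1.10 in single libraries. Of 9 immune markers 1 reached that mean (CD68, 5.50 FPKM), and MS4A1 was listed at 0 throughout. Of 8 fibroblast markers LUM, which encodes the matrix protein lumican, stood at 258 FPKM and COL1A1 at 4.84, while COL1A2 was listed at 0 in all 9 libraries. The summed fibroblast markers lay between 206 and 414 FPKM in control libraries, 152 and 290 with sh1, and 121 and 377 with sh2, nearly all of it LUM, and their part in the results was not tested.

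The 10 genes spanned 3 separate tiers of level. KRT19 had the highest mean over the 9 libraries (1139 FPKM), followed by KRT7 (1010), KRT8 (590) and KRT18 (298). Then came UPK3B (24.5), UPK1B (17.3) and UPK2 (8.79), and last UPK1A (0.0787), KRT20 (0.0151) and UPK3A (0.0131). The ranges of KRT18 and UPK3B did not overlap, with a ratio of means of 12.2, and those of UPK2 and UPK1A did not overlap either, with a ratio of 112. Within a tier the neighbours overlapped. KRT19 was above KRT7 in 5 of 9 libraries, KRT7 above KRT8 in 9, KRT8 above KRT18 in 8, UPK3B above UPK1B in 8 and UPK1B above UPK2 in 8. FPKM is per length of transcript, so these levels can be set side by side only roughly. The length trend of shNT replicate 1 limits this comparison. So do stretches shared with other transcripts and restored decimal points, both described below.

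**Figure D1:**
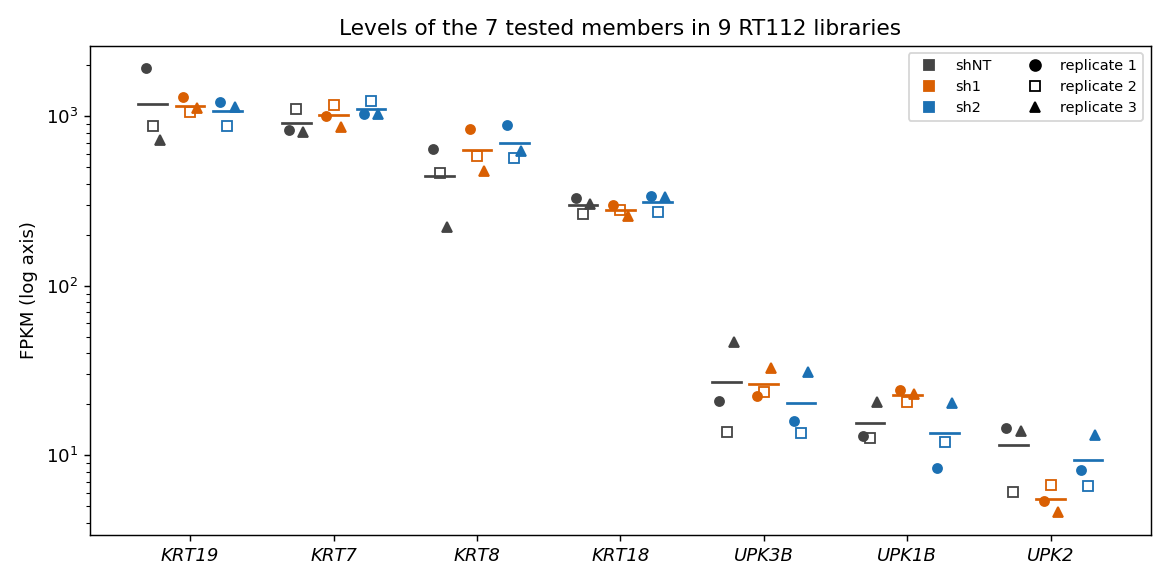
FPKM of the 7 tested genes on a log axis, with 1 point per library (colour for the hairpin, shape for the replicate number) and a line at each group mean of 3. The 4 keratins lie between 223 and 1927 FPKM and the 3 uroplakins between 4.60 and 46.6. Control libraries and the silenced libraries of both hairpins together overlap for all 7 genes. With sh1 alone, UPK1B lies narrowly above control.

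None of the 7 tested genes changed with STAG2 silencing at an adjusted p of 0.05. The count was 0 of 7 for sh1 against control, where 0.167% of all 11952 tested genes were called, and 0 of 7 for sh2 against control, where 0.00837% were. It was also 0 of 7 for both hairpins together (0.00837% of all genes) and for sh2 against sh1 (0.218%). At these shares of all genes a count of 0 among 7 is at the background. In bulk RNA a lower level per cell and fewer cells that express a gene cannot be told apart. The unadjusted limma p was under 0.05 for 1 of the 7 with sh1 (UPK2; 1618 of all genes), for 0 with sh2 (1513 genes), for 0 with both hairpins (1504 genes) and for 1 in sh2 against sh1 (UPK1B; 1684 genes). Fitting the replicate number as a block also gave 0 calls among the 7 in each of the 4 comparisons, against 0.644% of all genes for sh1, 0.00837% for sh2, 0.00837% for both and 0.142% for sh2 against sh1. In the limma fit with the block the unadjusted p was under 0.05 for 3 of the 7 with sh1 (UPK1B, UPK2 and KRT8; 2183 of all genes), for 1 with sh2 (KRT8; 2086 genes), for 1 with both hairpins (KRT8; 2056 genes) and for 1 in sh2 against sh1 (UPK1B; 2239 genes). The median log2 fold change of the 7 for both hairpins was 0.053, against -0.017 over all genes.

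KRT8, the type II chain that pairs with KRT18, had the largest log2 fold change of the 4 tested keratins with either hairpin. It stood at 640, 465 and 223 FPKM in shNT replicates 1, 2 and 3, at 840, 587 and 476 with sh1, and at 889, 568 and 624 with sh2. It was lowest in shNT replicate 3, and the groups overlapped. Against the control library of the same number, the sh1 libraries were 1.31, 1.26 and 2.13 times as high and the sh2 libraries 1.39, 1.22 and 2.79 times. With sh1, 18.3% of all tested genes were higher in 3 of 3 such pairs, and with sh2 20.7%, and both hairpins are set against the same 3 controls. The log2 fold change for both hairpins was 0.68 (SE 0.32, 95% interval -0.048 to 1.40, limma adjusted p = 0.410). It was 0.60 with sh1 (adjusted p = 0.508) and 0.75 with sh2 (adjusted p = 0.415). With the replicate number as a block the value for both hairpins had an SE of 0.20 and a 95% interval of 0.21 to 1.14 (limma adjusted p = 0.196). Without shNT replicate 3 and without the block it was 0.25 for both hairpins (adjusted p = 0.665).

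shNT replicate 3 was also the lowest library for basal keratins and for several genes of filament-linked proteins. KRT17, a type I keratin of basal and stressed epithelium, was at 410 FPKM there and between 2978 and 4417 in the other 8 libraries. KRT5, the type II keratin of basal cells, was at 518 there and between 1664 and 4149 elsewhere. SFN, the 14-3-3 protein stratifin, was at 201 there against at least 429 elsewhere, and DST, a plakin that ties filaments to hemidesmosomes, was at 87.4 against at least 118. KRT18 (304 FPKM) was in the middle of its range in that library, and the mucosal type I keratin KRT13 (1479) was too. S100P, a luminal calcium-binding protein, had its highest value there, 993 FPKM. The part of this library's other differences in the KRT8 values was not tested beyond the fit without it.

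**Figure D2:**
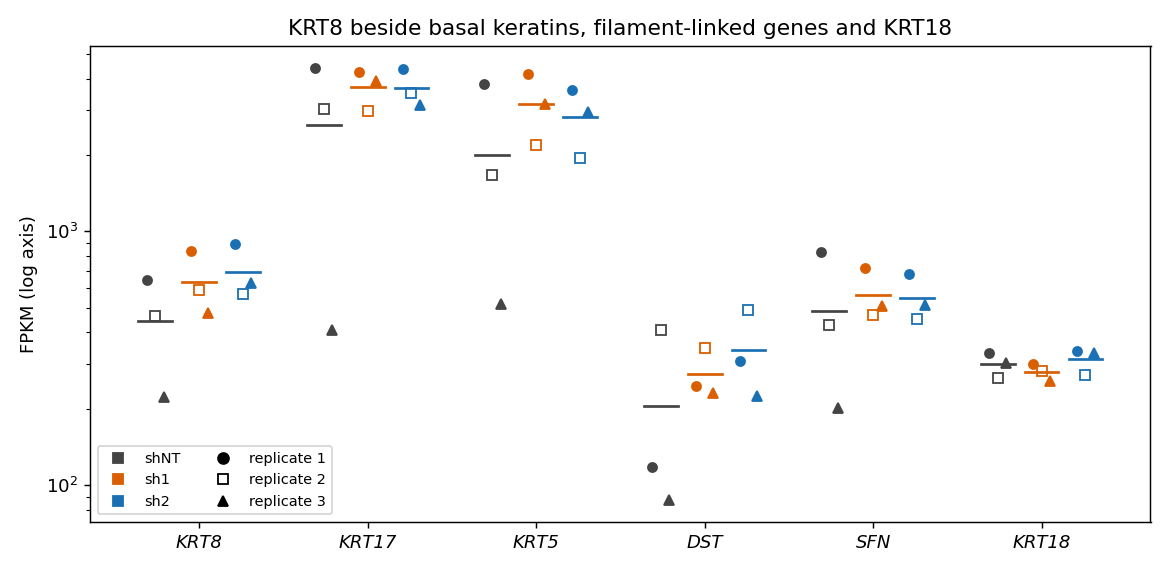
FPKM of KRT8, 2 basal keratins (KRT17, KRT5), 2 genes of filament-linked proteins (DST, SFN) and KRT18 on a log axis, 1 point per library with group means of 3 as lines. The control triangle (shNT replicate 3) is the lowest point for KRT8 (223), KRT17 (410), KRT5 (518), DST (87.4) and SFN (201), and not for KRT18 (304).

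KRT7, the other type II chain, had a narrower relative range than KRT8. It stood at 828, 1105 and 811 FPKM in shNT replicates 1, 2 and 3, at 1012, 1162 and 864 with sh1, and at 1038, 1229 and 1040 with sh2. Replicate 2 was the highest library in each group, and the groups overlapped. Against the control of the same number it was 1.22, 1.05 and 1.07 times as high with sh1 and 1.25, 1.11 and 1.28 times with sh2. For both hairpins together KRT7 had a log2 fold change of 0.22 (SE 0.18, 95% interval -0.19 to 0.62, limma adjusted p = 0.593). With its 3 restored values missing it was -0.017, a value that rests on shNT replicate 2 as the only control library.

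KRT18, the type I partner of KRT8, had the narrowest relative range of the 4 tested keratins. It stood at 331, 264 and 304 FPKM in shNT replicates 1, 2 and 3, at 301, 282 and 258 with sh1, and at 338, 272 and 333 with sh2. The groups overlapped, and all 9 values lay within 258 to 338 FPKM. For both hairpins KRT18 had a log2 fold change of -0.013 (SE 0.14, 95% interval -0.33 to 0.30, limma adjusted p = 0.970), and its sign changed under 3 of the other normalizations or weightings.

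KRT19, the type I keratin without a tail domain, had the highest mean of the 10 over the 9 libraries, although KRT7 was above it in 4 of them and in the mean of the sh2 group (1102 against 1080 FPKM). It stood at 1927, 873 and 731 FPKM in shNT replicates 1, 2 and 3, at 1299, 1055 and 1126 with sh1, and at 1225, 878 and 1139 with sh2. The control libraries held both its highest and its lowest value, so the silenced range lay inside the control range. Its highest value was in shNT replicate 1, the library in which short transcripts were high. The principal KRT19 transcript has 1390 bases, against a median of 3647 for the longest transcript of a gene. Of 2 shorter ones, UPK2 (916 bases) was also highest in that library and UPK3B (1296 bases) was not. The part of transcript length in these values was not tested. For KRT19 both hairpins together gave a log2 fold change of 0.053 (SE 0.29, 95% interval -0.60 to 0.70, limma adjusted p = 0.943). With its 3 restored values missing it was -0.72, a value that rests on shNT replicate 1, its highest library, as the only control. KRT20, the umbrella cell keratin, was at 0 in 4 of the 9 libraries and at most 0.0475 FPKM (shNT replicate 3).

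The balance between chain types was computed within each library. The ratio of KRT8 to KRT18 was 1.48 ± 0.648 (SD, n = 3) in the shNT group, 2.24 ± 0.492 in sh1 and 2.20 ± 0.390 in sh2, and ran from 0.736 in shNT replicate 3 to 2.79 in sh1 replicate 1. The summed type II chains KRT7 and KRT8 over the summed type I chains KRT18, KRT19 and KRT20 gave 1.01 ± 0.365 (SD, n = 3) in the shNT group, 1.14 ± 0.171 in sh1 and 1.31 ± 0.226 in sh2. The group differences were smaller than the control SD for this ratio. The 5 simple keratins together made up 22.6% to 44.9% of all keratin FPKM in a library, with the highest share in shNT replicate 3, and 0.476% to 0.877% of the FPKM of all genes.

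**Figure D3:**
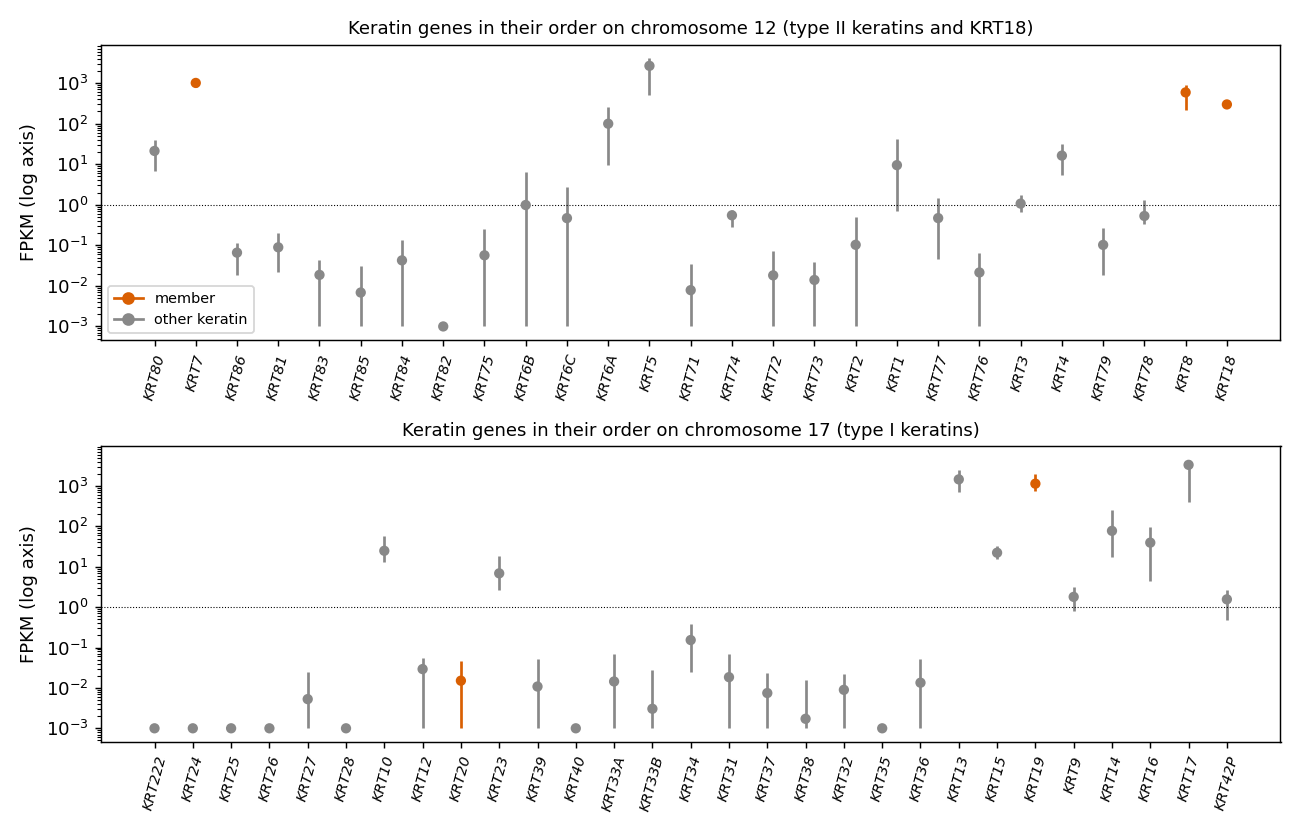
FPKM of keratin genes in their order along chromosome 12 (top) and chromosome 17 (bottom) on a log axis. Points are means over the 9 libraries, lines run from the lowest to the highest library, the dotted line marks 1 FPKM, values of 0 are drawn at the bottom of the axis, and KRT7, KRT8, KRT18, KRT19 and KRT20 are in orange. KRT7, KRT8, KRT18 and KRT19 are among the high genes of their clusters, while KRT20 lies among genes near 0.

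Most keratin genes beside them had little or no signal. On chromosome 12, 18 of 27 keratin genes had means below 1 FPKM, and on chromosome 17, 19 of 29. Of the 51 keratins outside the 5 studied here, 15 were tested, and 0 were called with both hairpins, 9 being higher and 6 lower with a median log2 fold change of 0.37. KRT17 (3332 FPKM), KRT5 (2667) and KRT13 (1456) had the highest means of these. All 3 means were above those of KRT19, KRT7, KRT8 and KRT18.

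Among the uroplakins, UPK1B, the tetraspanin that pairs with UPK3A and UPK3B, was the only one of the 7 tested genes whose groups separated in any comparison. It stood at 12.9, 12.6 and 20.7 FPKM in shNT replicates 1, 2 and 3, at 24.3, 20.8 and 23.0 with sh1, and at 8.43, 12.1 and 20.4 with sh2. All sh1 libraries were above all control libraries by a narrow margin (20.757 against 20.724), as in 17.7% of all tested genes, which were separated in either direction. All sh2 libraries were below all sh1 libraries (20.420 against 20.757), as 28.6% of all genes were separated. No gene of the 7 was separated for sh2 against control (15.2% of all genes) or for both hairpins against control (4.45%). The log2 fold change was 0.56 with sh1 (SE 0.28, 95% interval -0.069 to 1.19, limma adjusted p = 0.419) and -0.22 with sh2 (adjusted p = 0.732, and 0.0028 with spike-in scaling). With the replicate block the 95% interval with sh1 was 0.077 to 1.04 (limma adjusted p = 0.221). The difference between the hairpins was -0.77 (SE 0.28, 95% interval -1.40 to -0.15, limma adjusted p = 0.266), and with the replicate block its adjusted p was 0.126. Against the control of the same number UPK1B was higher in 3 of 3 pairs with sh1 (1.88, 1.64 and 1.11 times), as 18.3% of all genes were. With sh2 it was lower in 3 of 3 (0.651, 0.955 and 0.985 times), as 22.5% of all genes were, and the last 2 ratios are close to 1.

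UPK2, the single-pass partner of UPK1A, stood at 14.4, 6.05 and 13.9 FPKM in shNT replicates 1, 2 and 3. It stood at 5.37, 6.69 and 4.60 with sh1, and at 8.22, 6.60 and 13.3 with sh2. The sh1 libraries were low and close together, and shNT replicate 2 lay among them, so the groups overlapped. On the log2 scale UPK2 differed from control by -0.85 with sh1 (SE 0.32, 95% interval -1.56 to -0.14, limma adjusted p = 0.297), -0.23 with sh2 (adjusted p = 0.744) and -0.54 with both (SE 0.28, adjusted p = 0.427). Without shNT replicate 2 the value with sh1 was -1.22 (limma adjusted p = 0.1002). It was smaller in size without shNT replicate 1 (-0.66, adjusted p = 0.413) and without shNT replicate 3 (-0.68, adjusted p = 0.402). With array weights it was -0.50 (adjusted p = 0.605). The ratio of UPK1B to UPK2 was 1.49 ± 0.594 (SD, n = 3) in the shNT group, 4.21 ± 0.988 in sh1 and 1.46 ± 0.406 in sh2.

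UPK3B, the UPK3A relative that is also expressed in mesothelium, was highest in the libraries numbered 3 of every group. It stood at 21.0, 13.7 and 46.6 FPKM in shNT replicates 1, 2 and 3, at 22.3, 23.6 and 32.7 with sh1, and at 15.9, 13.6 and 31.2 with sh2. The 3 libraries numbered 3 lay between 31.2 and 46.6, above all 6 others. The share of all genes separated in this way by number was not computed. The log2 fold change for both hairpins was -0.10 (SE 0.36, 95% interval -0.90 to 0.70, limma adjusted p = 0.910), and 0.052 with spike-in scaling. In a test of the replicate number itself UPK3B had an adjusted p of 0.0802 (limma F test), and 0 of the 7 genes were called where 0.393% of all genes were. KRT8 had an adjusted p of 0.168 and UPK1B one of 0.280 in the same test. With spike-in scaling UPK3B was called (limma F test, adjusted p = 0.0197), as 1 of 102 genes called among all those tested. The related gene UPK3BL, which shares no stretch of 50 bases with UPK3B in the annotated transcripts compared, was at 19.9 to 34.4 FPKM in control libraries and 14.9 to 29.5 in silenced ones.

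The other 2 uroplakins were near 0 in every library. UPK1A reached at most 0.179 FPKM (sh1 replicate 3) and was listed at 0 in 2 libraries. UPK3A, the main partner of UPK1B in plaques, was at 0.0548 and 0.0628 FPKM in shNT replicates 2 and 3 and listed at 0 in the other 7 libraries. With no counts in the table, these levels cannot be told from single fragments, and no fold change is given for them. The partner of UPK1A (UPK2) and the partner of UPK3A (UPK1B) were thus detected while UPK1A and UPK3A were not above this level.

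**Figure D4:**
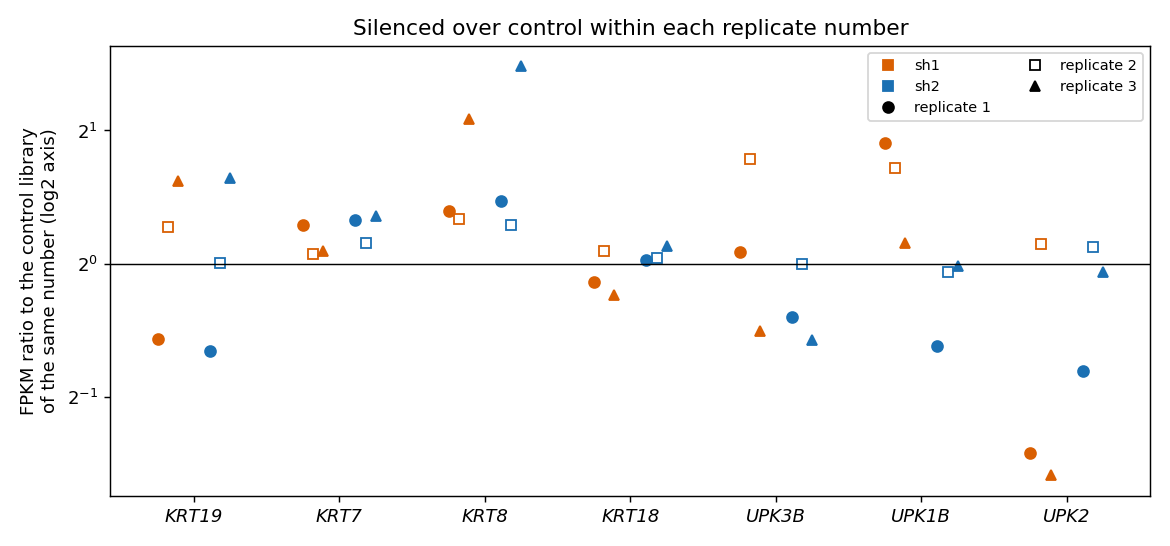
FPKM of each silenced library divided by the control library of the same replicate number, on a log2 axis, for the 7 tested genes. The line marks a ratio of 1. KRT7 and KRT8 lie above it in 3 of 3 pairs with sh1 and in 3 of 3 with sh2. Over all tested genes 18.3% lie above it in 3 of 3 pairs with sh1 and 20.7% with sh2. Both hairpins share the same 3 controls. UPK1B lies above it with sh1 and below it with sh2, where its ratios for replicates 2 and 3 are 0.955 and 0.985. With sh2, KRT18 lies above it and UPK3B below it in 3 of 3 pairs (22.5% of all tested genes lie below), and with sh1 both scatter. KRT19 and UPK2 scatter on both sides.

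Genes that work with these proteins did not pass the test either, apart from CDH1. Of 9 tested genes for the transport of uroplakin vesicles and related membrane traffic, 4 were higher and 5 lower with both hairpins and 0 were called (median log2 fold change -0.069). VAMP8, a vesicle fusion protein, had the highest mean (114 FPKM), followed by the small GTPases RAB8A (32.9) and RAB11A (30.3). MAL, a raft protein of the umbrella cell surface, was at 0.0179 FPKM. Of 22 tested luminal urothelial factors and markers, 6 were higher and 16 lower with both hairpins and 0 were called (median -0.16), against the median of -0.017 over all genes. S100P (501 FPKM), KLF5 (83.9) and RXRA (60.5) led this list by level, the last 2 being a Krüppel-like and a nuclear receptor transcription factor.

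A list of genes for filament-linked proteins, made of plakins, plakophilins, SFN and the keratin-binding protein TCHP, had 9 genes higher and 2 lower with both hairpins, and 0 of 11 were called (median 0.39). SFN, DST, PLEC and DSP led by level (533, 274, 138 and 92.0 FPKM), and shNT replicate 3 was the lowest library for all 4. Of 7 tested non-keratin intermediate filament genes 3 were higher and 4 lower, with 0 called. The lamins LMNA (244 FPKM) and LMNB1 (57.6) were the highest of these, and the mesenchymal filament VIM was at 5.24. Of 8 epithelial identity genes 4 were higher and 4 lower with both hairpins, and 0 were called. CDH1, which encodes E-cadherin, fell with sh1 from 86.2 ± 14.4 to 36.6 ± 5.02 FPKM (SD, n = 3 each; log2 fold change -1.21, limma adjusted p = 0.0496). It was at 123 ± 17.5 with sh2, and the difference of sh2 from sh1 was 1.72 (limma adjusted p = 0.0197). The call with sh1 was lost under 13 of 19 other settings (adjusted p up to 0.279) and the difference between hairpins under 5 of 19 (up to 0.124).

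The genes whose pattern over the 9 libraries was most like a studied gene were ranked by Pearson's r of log2(FPKM + 1) among 6511 genes with a mean of at least 10 FPKM. The libraries share replicate numbers and totals, so these r are descriptions. For UPK1B they were TTLL4 (0.949), TMEM164 (0.940) and UBQLN4 (0.939). For UPK2 they were GALT (0.919), ALDH3B1 (0.918) and CRTAP (0.916), and for UPK3B TRIT1 (0.971), UCK2 (0.970) and CSDA (0.953). For KRT7 they were HIP1R (0.956), TACC1 (0.944) and CSRP1 (0.929), and for KRT8 C9orf30 (0.986), ZNF410 (0.982) and CTNNAL1 (0.979). For KRT18 they were INF2 (0.959), MED9 (0.915) and PML (0.915), and for KRT19 FAM166A (0.984), MTCP1NB (0.979) and DRAP1 (0.976). Among the 7 genes themselves the closest pairs were UPK2 with KRT18 (0.742) and UPK1B with UPK3B (0.735), KRT8 and KRT18 had 0.332, and UPK3B and KRT7 ran opposite (-0.679).

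Several of these values rest on reads that other transcripts could share. In the GENCODE transcripts 47.6% of the 50-base windows of KRT18 and 36.9% of those of KRT8 also occur in transcripts of other genes, mostly processed pseudogenes, and 21.6% of the KRT18 windows occur in KRT8 transcripts, in either orientation. The shares were 19.6% for UPK3B, nearly all with the pseudogene UPK3BP1, 13.2% for UPK1A with the antisense gene UPK1A-AS1, and 10.8% for KRT7, mostly with KRT7-AS. They were 2.997% for UPK1B and 1.79% for KRT19, and 0 for UPK2, UPK3A and KRT20. How shared fragments were assigned, and whether strand was used, is not given in the sources used here, so KRT8, KRT18, UPK3B, KRT7 and UPK1A are uncertain to that extent. The KRT8 and KRT18 levels also rest on a restored decimal point in all 9 libraries with no undamaged value to compare with.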

How the data were processed

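RNA was measured by poly(A)+ sequencing with a stranded kit, with ERCC spike-in RNA added in equal amounts, per the labels' protocols. The authors deposited FPKM values, 1 table for 9 libraries with 23370 entries, of which 92 are spike-ins. Per the submitters' processing notes the build was hg19. Aligner, counting program and annotation: not given in the sources used here. The depth per library is unknown, so errors are the spread between replicates alone and no counting interval is printed. The table had lost decimal points: 10255 of 210330 values (4.88%) were divided by 1000 and 15 other whole values stayed as they were. Where the gene had undamaged values, the reading nearer to them was taken. For 1329 of the divided values there were none, and size alone (1000 or more as written) decided. These include all 9 values of KRT8 and of KRT18, which undivided would be of the size of the summed FPKM of a whole library. KRT7 had 3 restored values, KRT19 3 and UPK3B 2. Groups and replicate numbers come from the sample titles.

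The test was limma 3.58.1 (R 4.3.3) on log2(FPKM + 1), two-sided, with a variance trend. Benjamini-Hochberg adjustment ran over the 11952 genes whose mean FPKM was 1 or more, with a threshold of 0.05. The model held the group alone and used all 9 libraries, and fold changes on this scale understate the change of low genes. The main fit thus ignored the replicate numbers, and only the block fit treated them as pairing the samples. The block was fitted because same-number libraries correlated in their deviations from group means (r from 0.118 to 0.491, against -0.629 to 0.205 for other numbers). Deviations within a group cancel out, so a positive r for equal numbers by itself lowers the r for other numbers. The labels do not say what a number marks. Tables, promoters and transcript windows were handled in Python 3.11.15 (numpy 2.4.6, pandas 2.3.3, scipy 1.17.1) with GENCODE 29 and RefSeq promoters, used for names and sequence since the table has no coordinates. All 10 genes are named, together with the genes of highest mean level in each companion list, any list gene past the threshold and the 3 most alike genes. The 10 genes and the lists were chosen with earlier results of these data known. The alternatives tried were 2 other pseudocounts, 2 other filters, 3 other scalings, the replicate block, only the groups compared, array weights, restored values set to missing, and leaving out each library.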

Additional observations from a re-analysis of the deposited data

How the results depend on the processing

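None of the 7 tested genes passed the limma threshold in the 4 hairpin comparisons under any alternative tried, and for single genes 506 alternative values kept their direction and 39 reversed. Depth per library is unknown and limits what the values near 0 of UPK1A, UPK3A and KRT20 can show. Spike-in scaling moved the median log2 fold change of all genes by 0.141 for both hairpins.

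Counts over all genes moved. For sh1 they were 20 as reported, 3 with a pseudocount of 0.1, 3 without a filter, 2 with spike-in scaling, 0 with only the groups compared, 3 with restored values missing, and 0 to 14 without 1 library. For sh2 they were 1 as reported, 0 with no filter, 0 with spike-in scaling, 0 with only the groups compared, and 0 to 6 without 1 library, and for both hairpins 0 to 3 without 1 library. For sh2 against sh1 they were 26 as reported, 0 without a filter, 2 with spike-in scaling, 92 with only the groups compared, 458 with array weights, 3 with restored values missing, and 0 to 52 without 1 library. For the replicate number they were 47 as reported, 7 without a filter, 102 with spike-in scaling, 99 with quantile normalization, 1609 with array weights, and 2 to 209 without 1 library. Among the 7 genes 1 was called by replicate number with spike-in scaling (UPK3B) and 2 with array weights (UPK3B and KRT8). STAG2 kept its value without a filter (-2.36, adjusted p = 0.0616, over more genes tested) and ran from -2.64 to -2.14 without 1 library. The cause of these moves was not tested.

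With the replicate block, which pairs libraries of the same number, 77 genes were called for sh1 and 17 for sh2 against sh1. It changed no call among the 7 genes. The adjusted p of KRT8 for both hairpins was 0.196 with the block.

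Reversed log2 fold changes were as follows, with the cause not tested except where the libraries left are named. With spike-in scaling they were 0.0028 for UPK1B with sh2, 0.052 for UPK3B and 0.15 for KRT18 with both hairpins, 0.23 for KRT19 with sh2 and 0.035 for KRT19 in sh2 against sh1. With median-of-ratios scaling KRT19 was at 0.016 with sh2. With quantile normalization KRT18 was at 0.025 with sh1 and 0.14 with both, and KRT19 at 0.27 with sh2. With array weights they were 0.081 for UPK2 and 0.22 for KRT19 with sh2, and 0.083 for UPK3B and 0.066 for KRT18 with both. With restored values missing, which leaves 1 control library for KRT7 (shNT replicate 2) and 1 for KRT19 (shNT replicate 1) whose spread is taken from the other groups, KRT7 was at -0.026 with sh1, -0.0076 with sh2 and -0.017 with both, and KRT19 at -0.74 with sh1, -0.72 with both and 0.031 in sh2 against sh1. KRT8 and KRT18 could not be fitted that way, having no other values. Without 1 library, UPK1B ran from -0.53 to 0.061 with sh2, and UPK3B from -0.27 to 0.58 with sh1, -0.70 to 0.15 with sh2 and -0.48 to 0.37 with both. KRT8 ran from -0.051 to 0.36 in sh2 against sh1, and KRT18 from -0.022 to 0.17 with sh2 and -0.10 to 0.061 with both. KRT19 ran from -0.17 to 0.53 with sh1, -0.28 to 0.42 with sh2, -0.22 to 0.48 with both and -0.21 to 0.031 in sh2 against sh1.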
